A study of Mus musculus with 6 samples.

Results

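Signal was followed for 10 genes of the LKB1 kinase pathway: Nuak1 and Nuak2, Sik1 to Sik3, Mark1 to Mark4, and Stk11, which encodes the upstream kinase LKB1. They were chosen by gene symbol, and each is represented by the probe set row that lists its symbol alone and has the highest mean over all arrays. All 10 were found among 19938 named genes, on 11 rows, since Mark2 has 2. RNA came from the mouse embryonic stem cell line E14, grown on gelatin in serum with leukemia inhibitory factor, infected with lentiviral vectors and selected with puromycin. There were 3 control arrays and 3 arrays of cells in which Tdg was knocked down. The labels do not say what the control vector carried or which sequence targeted Tdg, and they do not describe separate cultures, so p-values reflect the spread between these arrays, which may be technical. The values are log2 signals of whole-transcript arrays, so a difference of 1 is a 2-fold change in measured signal. Since bulk RNA was measured, fewer cells with a transcript and less of it per cell cannot be told apart. A low signal was not set against a background reading. Probe sets respond differently, so between genes a signal is given only as a percentile among all rows or as the change of a difference within an array.

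LKB1 is a serine/threonine kinase and tumour suppressor that switches on AMPK and a group of related kinases by phosphorylating a threonine in their activation loop. It works in a complex with the pseudokinase STRAD and the scaffold protein MO25. Among the related kinases, NUAK1 and NUAK2 are linked to the myosin phosphatase and to cell adhesion, the salt-inducible kinases (SIK) hold the CRTC coactivators of CREB in the cytoplasm, and the MARK kinases (PAR-1 in worm and fly) phosphorylate microtubule-associated proteins and take part in cell polarity. TDG, the enzyme targeted here, is a DNA glycosylase that removes some oxidised forms of methylcytosine from DNA.

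The knockdown left 12.2% of the control signal on the 4 rows shared by Tdg and its pseudogene (limma, adjusted p = 8.79e-05). Titles and design name Tdg, whereas the extraction protocol names Kdm2b. The 12 measured embryonic stem cell markers lay between the 84.8 and 99.5 percentiles of mean level over all rows, and none passed the test. Knockdown replicate 3 stood apart, at 31.0 on the first principal component against -17.5 to 5.17 for the other arrays. Values without it are therefore given beside some of the results. Across all named genes the median difference was 0.02, and limma called 158 at an adjusted p under 0.05 (0.792%), of which 110 were lower (0.552%) and 48 higher (0.241%). With the replicate number as a block 614 were called (3.08%), and without knockdown replicate 3 there were 290 (1.45%).

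Of the 10 kinase genes, 1 passed this threshold, Nuak1, which fell to about 49.9% of its control signal. No member rose. Nuak2 lay lower without passing, and the upstream kinase gene Stk11 was within 0.05 of its control mean. Over the 10 genes the median difference was -0.10, with 7 below 0 and 3 above, beside 43.5% of all named genes below 0. The groups did not overlap in 5 members, Nuak1, Nuak2, Sik2, Mark1 and Mark4, and knockdown was the lower group in each; among all named genes 19% had groups that did not overlap in either direction, 11% with knockdown lower and 7.98% with it higher. The fall of Nuak1 was among the results known when these genes were put together. Without it, 4 of the other 9 members had groups that did not overlap, with a median difference of -0.09.

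**Figure D1:**
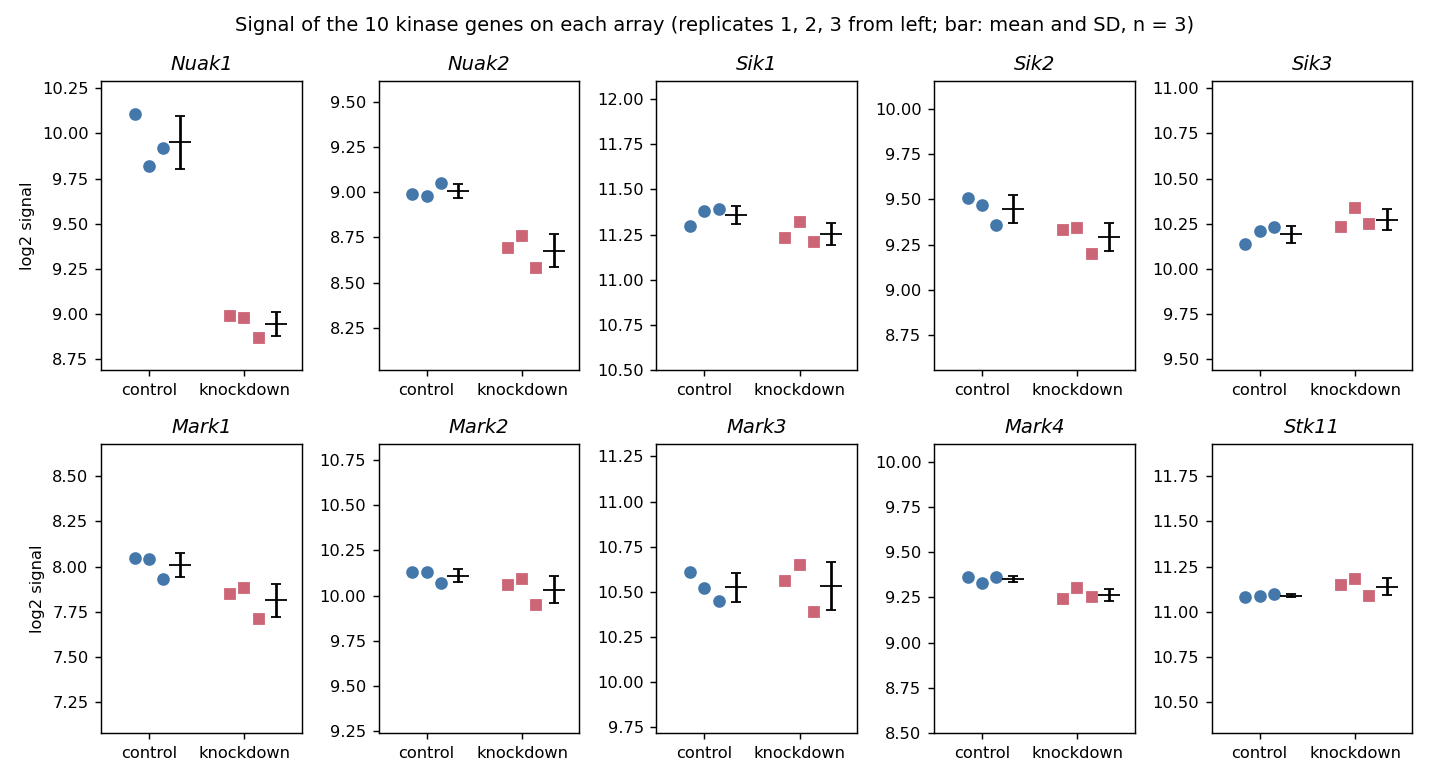
Log2 signal (y axis, a span of 1.6 in every panel) of each of the 10 genes on the 3 control arrays (blue circles) and 3 Tdg knockdown arrays (red squares), with the mean and SD of each group in black. In Nuak1 the knockdown arrays, at 8.87 to 8.99, lie 0.83 below the lowest control array, while in Stk11 and Mark3 the groups overlap.

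Nuak1 encodes a kinase that phosphorylates the myosin phosphatase targeting subunit MYPT1 and takes part in cell detachment and cell survival. Its control signals were 10.11, 9.82 and 9.92, and its knockdown signals were 8.99, 8.98 and 8.87. All knockdown arrays lay below all control arrays, and the gap between the nearest arrays of the groups, 0.83, was larger than the whole range of either group. The mean went from 9.95 ± 0.15 to 8.95 ± 0.07 (SD, n = 3 each), a difference of -1.00 (SE 0.09, 95% confidence interval -1.21 to -0.79). The adjusted p from limma over all named genes was 0.0115, and 0.00879 with the replicate block. Between arrays of the same number the difference was -1.12, -0.84 and -1.05. Nuak1 took rank 8 among 19938 genes ordered from the largest fall. Its call depended on which single array was left out. Without knockdown replicate 3 it was kept (-0.965, limma, adjusted p = 0.0104). Without any other single array the adjusted p from limma was 0.0560 to 0.0842, at differences of -0.92 to -1.07. With all 35557 rows of the table tested the adjusted p was 0.0614.

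TDG acts on oxidised cytosines, which form mostly where a cytosine precedes a guanine (CpG), so the sequence before the start of Nuak1, the member with the largest difference, is shown beside that of Stk11, the gene of its upstream kinase. Cytosine modification was not measured on these arrays. Each window holds the 250 bases before the RefSeq start in build GRCm38.p6, written 5′ to 3′ on the strand of the gene with each CpG in capitals. Nuak1 is on the minus strand at chr10:84440669-84440918 and Stk11 on the plus strand at chr10:80115545-80115794.
Nuak1: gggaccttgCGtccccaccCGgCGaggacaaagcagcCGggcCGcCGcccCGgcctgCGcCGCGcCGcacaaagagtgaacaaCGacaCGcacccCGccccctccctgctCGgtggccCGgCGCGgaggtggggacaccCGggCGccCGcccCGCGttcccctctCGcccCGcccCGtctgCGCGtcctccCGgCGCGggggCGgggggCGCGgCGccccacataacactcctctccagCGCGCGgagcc
Stk11: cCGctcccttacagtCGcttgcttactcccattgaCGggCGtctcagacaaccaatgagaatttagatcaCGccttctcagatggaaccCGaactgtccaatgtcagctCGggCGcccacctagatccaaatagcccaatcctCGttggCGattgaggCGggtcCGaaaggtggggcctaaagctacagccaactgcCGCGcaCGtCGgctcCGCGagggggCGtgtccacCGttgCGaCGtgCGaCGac
The Nuak1 window holds 38 CpGs, more than 98.1% of the 32851 promoter windows in the RefSeq table, whose median is 6. The Stk11 window holds 24, more than 88.0% of them. Windows of 7 members were in the table, 10 windows in all, with 6 to 52 CpGs. A Mark1 window held the 52, the Sik2 window held 35 and the Sik3 window 32, and none of these genes passed the test. The second Mark1 window and those of Mark2 and Mark3 held 6 to 22. Both windows shown thus hold more CpGs than most promoter windows, and that of Nuak1 holds more than that of Stk11. Whether CpG content bears on the 2.00-fold lower signal of Nuak1 was not tested.

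NUAK2, the closest relative of NUAK1, is activated by LKB1 as well and is known for its link to actin and myosin contractility. Nuak2 gave 8.99, 8.98 and 9.05 on the control arrays and 8.69, 8.76 and 8.58 on the knockdown arrays. The groups did not overlap, and the gap between them was 0.22. The mean was 9.01 ± 0.04 in control and 8.68 ± 0.09 in knockdown cells (SD, n = 3 each), a difference of -0.33 (SE 0.07, 95% confidence interval -0.49 to -0.17), or 79.6% of control. It did not pass over all genes (limma, adjusted p = 0.0963, and 0.0632 with the block), and 2.60% of all named genes had a difference as low or lower. Without knockdown replicate 3 the difference was -0.28 (adjusted p = 0.0897). The paralogs were also set against each other within each array. Nuak1 minus Nuak2 was 1.12, 0.84 and 0.87 in control and 0.30, 0.22 and 0.29 in knockdown arrays, so the log2 distance between their signals shrank by 0.67. An exact two-sided permutation test gave p = 0.1, the smallest that 3 arrays against 3 can give, and Nuak1 had been picked for its fall.

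The 3 Sik genes differed by at most 0.16 in size, and none passed. SIK1 is itself the product of a gene that CREB induces, and it acts back on the CRTC coactivators. Sik1 showed 11.30, 11.38 and 11.39 in control and 11.23, 11.32 and 11.21 in knockdown arrays. These groups overlapped, by knockdown replicate 2 and control replicate 1, and the difference was -0.10 (SE 0.06, limma, adjusted p = 0.606). SIK2, abundant in fat tissue, phosphorylates CRTC2. Sik2 showed 9.51, 9.47 and 9.36 against 9.33, 9.34 and 9.20, groups separated by only 0.02, with a difference of -0.16 (SE 0.07, limma, adjusted p = 0.447). SIK3 is known from skeletal growth and from the control of sleep need in mice. Sik3, at 10.14, 10.21 and 10.23 in control and 10.23, 10.34 and 10.25 in knockdown arrays, was the Sik gene with a difference above 0 (0.08, SE 0.06, limma, adjusted p = 0.702). Its 95% confidence interval, as a percentage of the control signal, ran from 95.2% to 117%, that of Sik1 from 83.8% to 103% and that of Sik2 from 79.7% to 101%.

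The 4 Mark genes also held no call. MARK1 is prominent in brain and phosphorylates tau. Mark1 had signals of 8.05, 8.04 and 7.93 in control and 7.85, 7.88 and 7.71 in knockdown arrays. The groups stood 0.05 apart, and the difference was -0.19 (SE 0.07, limma, adjusted p = 0.343), or -0.14 without knockdown replicate 3. MARK2 takes part in epithelial polarity. On its brighter row Mark2 had 10.13, 10.13 and 10.07 against 10.06, 10.09 and 9.95, which overlapped, with a difference of -0.08 (SE 0.07, limma, adjusted p = 0.725), or -0.035 without knockdown replicate 3. The second Mark2 row, not chosen by the rule, had 8.99, 9.26 and 9.22 against 9.08, 9.22 and 9.22, a difference of 0.02, so the rows of this gene differed in sign. MARK3, also called C-TAK1, phosphorylates the CDC25C phosphatase and the scaffold KSR1. Mark3 had 10.61, 10.52 and 10.45 against 10.56, 10.65 and 10.39; its knockdown arrays spanned the control range on both sides, and the difference was 0.01 (SE 0.09, limma, adjusted p = 0.985). The sign of Mark3 turned when control replicate 3, knockdown replicate 1 or knockdown replicate 2 was left out (-0.05 to -0.01). MARK4 binds centrosomes and microtubules. Mark4 had 9.36, 9.33 and 9.36 against 9.24, 9.30 and 9.25, groups 0.03 apart and narrow, with a difference of -0.09 (SE 0.06, limma, adjusted p = 0.632). The 95% confidence intervals of the Mark genes ran, as a percentage of the control signal, from 77.6% to 98.6% in Mark1, 85.2% to 106% in Mark2, 87.2% to 116% in Mark3 and 85.7% to 103% in Mark4.

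Stk11 encodes LKB1, the kinase that activates the other members. It had 11.08, 11.09 and 11.10 in control and 11.15, 11.18 and 11.09 in knockdown arrays. Its control arrays were the tightest of all 10 genes, with an SD of 0.01, and knockdown replicate 3 fell among them. The difference was 0.05 (SE 0.06, limma, adjusted p = 0.800), with a 95% confidence interval from 94.0% to 114% of the control signal, or 0.075 without knockdown replicate 3.

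**Figure D2:**
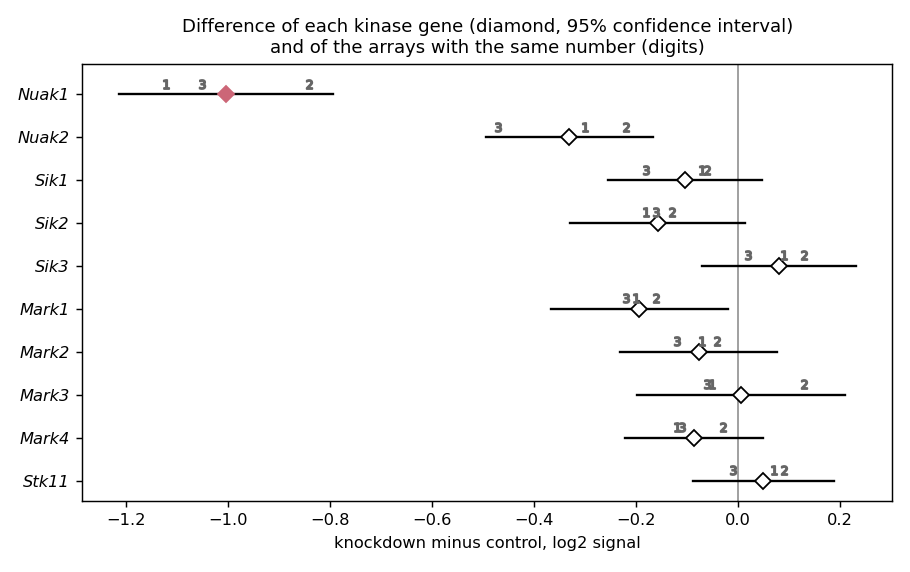
Knockdown minus control in log2 signal (x axis) for each of the 10 genes, as diamonds with 95% confidence intervals from limma; the diamond is red where the adjusted p over all named genes was under 0.05, and the digits 1 to 3 mark the differences between arrays of that number. Nuak1 at -1.00 lies apart from the other 9 genes, which run from -0.33 to 0.08.

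Knockdown replicate 3 was the lowest of the knockdown arrays in 8 of the 10 members, against 40.6% of all named genes. Leaving it out moved the median of the members from -0.10 to -0.08 and turned no sign. In pairs of the same number, Nuak1, Nuak2, Sik1, Sik2, Mark1, Mark2 and Mark4 were below 0 in all 3 pairs. Sik3 was above 0 in all 3, and Mark3 and Stk11 had both signs. Some of these differences were small, such as -0.03 in Mark4, -0.04 in Mark2 and 0.02 in Sik3. The share of all named genes with 1 sign in all 3 pairs was not counted.

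The partners of LKB1 were given by 4 genes, Strada, Stradb, Cab39 and Cab39l, the last pair encoding MO25 proteins. None passed the test. Stradb had a difference of -0.22 (SE 0.08, limma, adjusted p = 0.322) and Cab39l one of -0.18 (SE 0.07, limma, adjusted p = 0.358), both with groups that did not overlap. Such separation with knockdown lower was found in 11% of all named genes. Without knockdown replicate 3 the differences were -0.158 for Stradb and -0.13 for Cab39l. Among 12 genes of AMPK subunits and other related kinases none passed, with a median of 0.03 beside 0.02 over all genes. Prkaa1, the AMPK catalytic subunit alpha 1, had 0.17 (limma, adjusted p = 0.378), and Hunk, a kinase of the same family, had -0.17 (limma, adjusted p = 0.311). Of 9 listed other regulators of these kinases 7 were measured by a row of their own and none passed, with differences from -0.15 to 0.05. Prkcz, an atypical protein kinase C that phosphorylates MARK proteins, had -0.14 (limma, adjusted p = 0.455), and Prkacb, a catalytic subunit of protein kinase A, which phosphorylates SIK proteins, had -0.09 (limma, adjusted p = 0.735), or -0.02 without knockdown replicate 3.

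Downstream of the SIK kinases, 9 genes of CRTC coactivators, class IIa histone deacetylases, Creb1 and Atf1 held no call in the fit without a block and 1 lower with it. That gene was Crtc3, a CREB coactivator, with 8.09, 8.10 and 7.95 in control and 7.84, 7.81 and 7.59 in knockdown arrays. Its groups did not overlap, and the difference was -0.30 (SE 0.09, limma, adjusted p = 0.209, or 0.0499 with the block). Without knockdown replicate 3, its lowest array, the difference was -0.22 (limma, adjusted p = 0.203). The deacetylase gene Hdac7 had -0.28 (SE 0.12, limma, adjusted p = 0.401), with knockdown replicate 3 at 8.36 among the control values of 8.30 to 8.51. Without that array its difference was -0.41 (limma, adjusted p = 0.0643).

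Among 17 genes that CREB is known to induce, 1 rose and 1 fell, and the median was 0.05. Fos, an immediate early transcription factor, went from 7.02, 7.04 and 7.41 in control to 7.89, 7.99 and 8.11 in knockdown arrays. The groups did not overlap, and the difference was 0.84 (SE 0.12, limma, adjusted p = 0.0360). Irs2, the insulin receptor substrate, went from 8.69, 8.81 and 8.89 to 8.23, 8.32 and 8.28. It fell by 0.52 (SE 0.07, limma, adjusted p = 0.0349), also with groups apart. With the block 2 were higher and 1 lower, the added gene being Fosb (0.30, limma, adjusted p = 0.0963, or 0.0441 with the block), named after its values were seen. Fos no longer passed when either control array numbered 1 or 2, or either knockdown array numbered 1 or 2, was left out (limma, adjusted p of 0.114 to 0.219). Irs2 passed with 1 array left out only where that array was knockdown replicate 3, and otherwise had an adjusted p of 0.0982 to 0.229.

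The cyclic AMP response element, to which CREB binds, was searched on both strands of the 7 members' windows. Nuak2, Sik1 and Mark4 had no window and were not searched. The full palindrome TGACGTCA was in none of the 10 windows, against 1.55% of all windows. Its shorter form TGACGT, which the palindrome contains, was in 1 window, that of Sik3, against 6.47% of all. The match is shown in capitals with 7 bases on either side, at chr9:46012756-46012775 on the plus strand, and ends 51 bases before the start.
Sik3: cccggagTGACGTctgtcgg

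Because NUAK1 phosphorylates the myosin phosphatase, its subunits were read too, and 15 of 16 listed genes of this phosphatase, of non-muscle myosin and of its regulators were measured. None passed without a block, 11 of 15 were below 0, beside 43.5% of all named genes, and the median was -0.10, or -0.04 without knockdown replicate 3. The groups did not overlap in 4 of them, Myl9, Myl12b, Myh9 and Myh10, with knockdown lower in each. Among all named genes 19% had groups that did not overlap, 11% with knockdown lower. Myl9, a myosin regulatory light chain, had 9.29, 9.37 and 9.25 in control and 8.87, 8.98 and 8.61 in knockdown arrays. Its difference was -0.48 (SE 0.10, limma, adjusted p = 0.0963, or 0.0322 with the block). Without knockdown replicate 3, its lowest array, the difference was -0.38 (limma, adjusted p = 0.0588). Myh9, a non-muscle myosin heavy chain, had 11.20, 11.11 and 11.18 against 10.86, 10.88 and 10.78, a difference of -0.32 (SE 0.06, limma, adjusted p = 0.0828, or 0.0498 with the block). The light chain genes Myl6 (-0.03) and Myl12a (-0.13), named after their values were seen, had overlapping groups. Ppp1r12a, which encodes MYPT1 and was also named after its values were seen, had overlapping groups and a difference of -0.10 (limma, adjusted p = 0.690).

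Of 18 genes of MARK substrates and of cell polarity none passed without a block and 1 was higher with it. Map2, a microtubule-associated protein of neurons, had 8.86, 8.72 and 8.60 in control and 9.12, 9.20 and 8.98 in knockdown arrays. The groups were apart, and the difference was 0.37 (SE 0.09, limma, adjusted p = 0.137, or 0.0423 with the block). Pard6b, a polarity protein that partners atypical protein kinase C, had -0.21 (SE 0.06, limma, adjusted p = 0.226). The list had a median of -0.06, with 12 genes below 0 and 5 above, beside 43.5% of all named genes below 0.

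**Figure D3:**
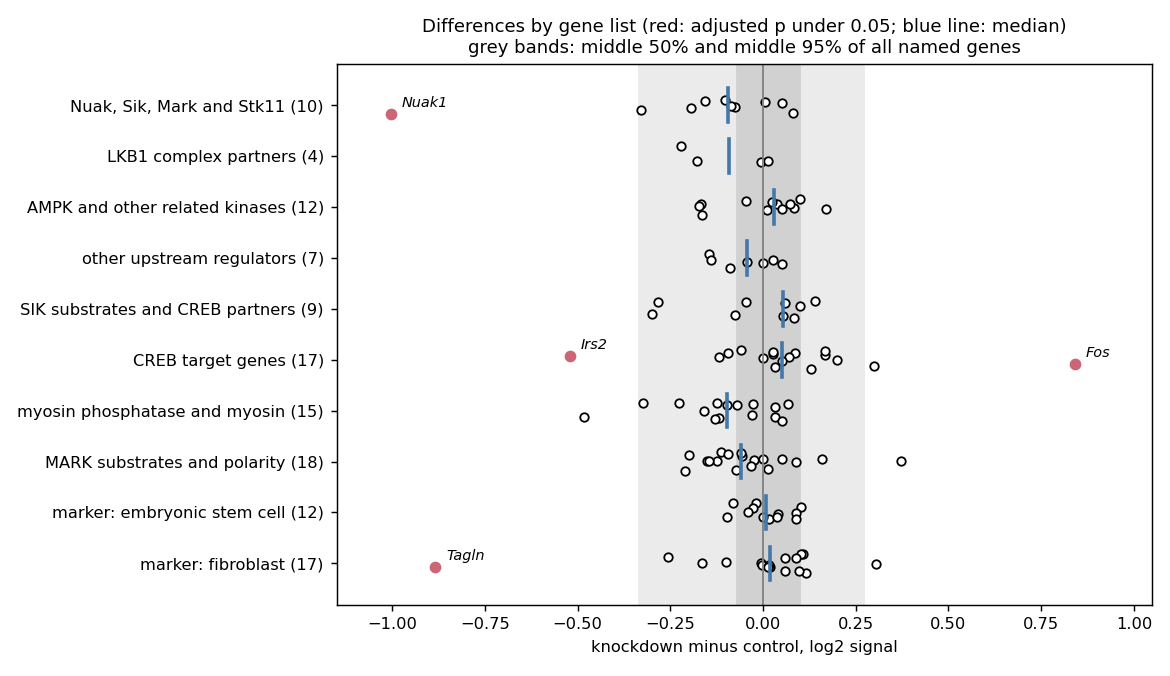
Knockdown minus control in log2 signal (x axis) for every measured gene of each list (rows, number of genes in brackets), with genes at an adjusted p under 0.05 in red and named, the list median as a blue line, and the middle 50% and middle 95% of all 19938 named genes as grey bands. Nuak1, Irs2, Fos and Tagln lie outside the wider band, which runs from -0.33 to 0.27. Myl9, Map2, Fosb and Vim, which did not pass, lie outside it too.

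Markers of fibroblasts were read beside these results, since contractile genes are strong in such cells. Of 17 measured markers 1 fell, the actin-binding protein gene Tagln (-0.88, limma, adjusted p = 0.0318), and 11 of 17 were above 0. Their median difference was 0.02, or -0.10 without knockdown replicate 3, so the sign of the median depended on that array. It was the lowest knockdown array in 0 of the 17 markers. The median level of the markers was 7.11 to 7.23 over the control arrays and 7.13 to 7.35 over the knockdown arrays, and the lowest of them lay at the 5.84 percentile of all rows. The markers did not share a level: Lum, Fap and Postn stayed at or under 4.99 on all 6 arrays, whereas Vim lay at the 97.4 percentile, Acta2 at 77.3, Tagln at 73.2 and Col1a1 at 62.5. With the replicate block 1 marker was also higher, Vim, an intermediate filament gene, at a difference of 0.30 (limma, adjusted p = 0.0751, or 0.0437 with the block). Their part in the result for Nuak1 was not tested.

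Likeness to Nuak1 over the 6 arrays was measured by the root mean square difference of deviations from each gene's own mean, in log2 units. Symbols of predicted gene models, clones and small RNAs were left out in naming the nearest genes. Nearest were Ghr, the growth hormone receptor, at 0.0770, Sema6a, a transmembrane semaphorin, at 0.0891, and Trim67, a tripartite motif protein, at 0.0936. Then came Thbs1, the matrix protein thrombospondin 1, at 0.101, and Fndc3c1, a fibronectin type III domain protein, at 0.101. All 5 fell, by 0.84 to 1.04 on the log2 scale, at an adjusted p of 0.00773 to 0.0120 in limma, and none of them is a kinase gene. None of these calls held when control replicate 1, control replicate 2 or knockdown replicate 1 was left out (adjusted p of 0.0631 to 0.103), and only that of Thbs1 held without knockdown replicate 2 (0.0535 to 0.0730 for the other 4). Nuak2 was the nearest member, at 0.349, rank 400 of all genes by this measure with no symbol left out. Sik3 was the farthest, at 0.554. All 6 arrays enter this measure, so it includes the difference between the groups. The 5 genes were chosen by it, so falls near that of Nuak1 follow from the choice.

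**Figure D4:**
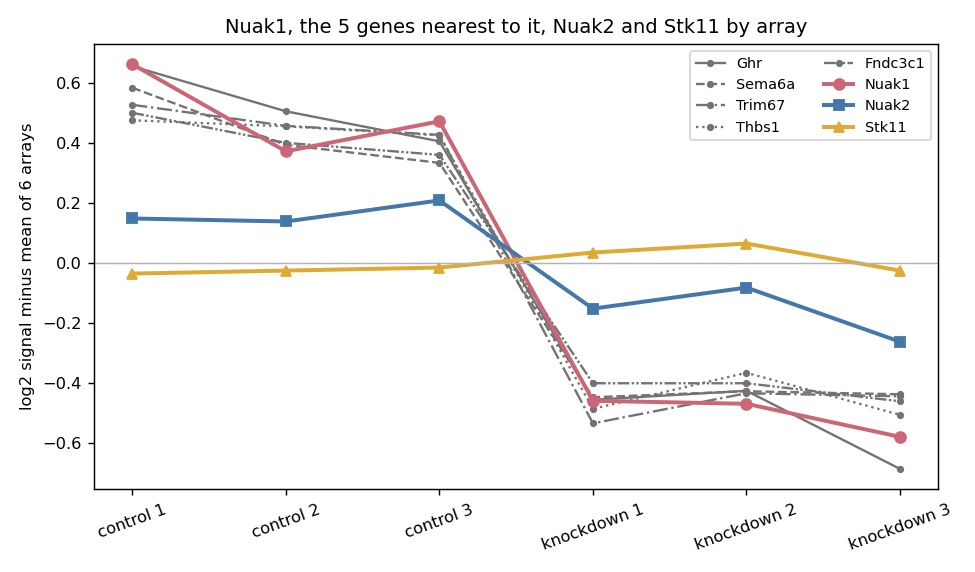
Log2 signal minus the gene's mean over the 6 arrays (y axis) on each array (x axis) for Nuak1 (red), its 5 nearest genes (grey), Nuak2 (blue) and Stk11 (yellow). The 5 nearest genes were picked on these same arrays, so they drop together with Nuak1 between the groups. Nuak2 drops by 0.33, and Stk11 stays within 0.07 of its mean.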

How the data were processed

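Samples were grouped by their titles. The authors deposited log2 signal per probe set and array, for which the submitters' processing notes name Affymetrix Expression Console; its version, the summarisation and the normalization were not stated there, and the log2 scale was taken from the values (2.26 to 14.03). Rows listing 1 gene (21789 of 35557) were named through the platform annotation, with symbols updated by gene identifier from the RefSeq table. Knockdown was compared with control over all named genes with limma 3.58.1 in R 4.3.3 (lmFit, eBayes, two-sided), with Benjamini-Hochberg adjustment and a threshold of 0.05. The procedure was tested on simulated data. Arrays of equal number correlated in their deviations from the group means at 0.61, 0.23 and 0.70. The numbers, which only the titles give, entered as a block in an alternative fit, and blocked values are printed where they change a call. SEs, confidence intervals and adjusted p-values come from the fit without a block unless the block is named. The members and lists were chosen with earlier results of these data known. Named genes were the members, the Tdg rows, up to 4 called genes in each direction from each pathway list or otherwise its 2 smallest p, and the 5 genes nearest to Nuak1. Symbols of predicted models, clones and small RNAs were left out of the last choice. Promoter sequences came from RefSeq (GRCm38.p6), which here held windows of 7 members. The number of arrays limits the precision.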

Additional observations from a re-analysis of the deposited data

How the results depend on the processing

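Over all named genes 158 passed in the fit without a block. With the replicate block 614 passed, without the dim rows (mean under 6.38) 351, with a trended robust prior 446, and with all rows tested 12. Leaving out single arrays gave 0 to 290; the counts of 0 came from limma without control replicate 1, control replicate 2 and knockdown replicate 1, where 1682, 1510 and 1959 genes had an unadjusted p under 0.05. Of the members 1 passed, 0 with all rows tested and 0 to 1 without single arrays (limma, with 2 to 3 members at an unadjusted p under 0.05 where the count was 0). Nuak1 kept its sign, at -1.00 with all rows tested, where it did not pass (adjusted p = 0.0614), and at -1.07 to -0.92 without single arrays. Mark3, at 0.01, ran from -0.052 to 0.078 without single arrays and was 0.00 after median centring. The distance of Nuak1 from Nuak2 changed by -0.725 to -0.585 without single arrays. The other 8 members kept their signs and their side of the threshold in all 13 alternatives. The block turned the calls of Crtc3, Fosb, Myh9, Myl9, Map2 and Vim, and of no other gene named from the lists. Fos (0.120) and Irs2 (0.113) among the list genes and Ghr (0.0726) and Sema6a (0.0614) among those nearest to Nuak1 did not pass with all rows tested, by adjusted p. Myh9 passed without the dim rows (0.0418) and, with Myl9, under the trended robust prior (0.0137 and 0.0406). With the mean of its rows Myh9 had a difference of -0.37 and did not pass (limma, adjusted p = 0.225). By the same mean Prkcz had -0.07 (limma, adjusted p = 0.785). Irs2 was lost after quantile normalization (-0.49, adjusted p = 0.0505). The cause of these changes was not tested. Signal over background could not be read from the deposited values.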
